A study of Mus musculus with 45 samples.

Results

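Hearts of regular weight mice that breathed sidestream cigarette smoke were compared with hearts of regular weight mice that breathed mainstream smoke. The 15 arrays were chosen by their titles, 7 labelled RW-SS (sidestream) and 8 labelled RW-MS (mainstream), out of 45 in the series, each an Affymetrix array of 1 heart RNA sample. All mice were male C57BL/6 and 15 weeks old when exposures began. Both groups ate a regular diet with about 5% of its energy as fat and inhaled smoke through the nose only, 5 hr a day, in 8 exposures within 2 weeks. Hearts were taken on the day after the last exposure, at a time of day not given in the sources used here. Set beside them are filtered air controls on the same diet (RW-SC, n = 8) and mice made obese by a diet with 60% of its energy as fat from 6 weeks of age (DIO), which breathed mainstream (DIO-MS, n = 6) or sidestream smoke (DIO-SS, n = 8) on the same schedule. Obese mice in filtered air (DIO-SC, n = 8) make up the rest of the 45 arrays and enter the fits over all of them. The growth protocol in the labels speaks of an LPS study, while titles and treatment protocol name smoke, which was followed here. The labels call the arrays of a group biological replicates.

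Mainstream smoke is what the smoker draws through the cigarette, and sidestream smoke comes off the burning tip between puffs and makes up most of second-hand smoke. Both carry aromatic compounds that act on the aryl hydrocarbon receptor, whose best known target is Cyp1a1, and oxidants that act on NRF2, the factor behind antioxidant genes such as Hmox1 and Nqo1. Heart muscle also runs a circadian clock, in which CLOCK and BMAL1 (the product of Arntl) switch on genes for their own repressors and for output factors such as DBP, so that these transcripts rise and fall over the day. In RNA of whole hearts, fewer cells of a type and less RNA per cell cannot be told apart.

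Transcripts of heart muscle stood at the top of the scale in all 15 arrays. Myh6, the adult cardiac myosin heavy chain, lay between 14.36 and 14.48 (log2 expression). The ventricular marker Myl2 lay between 14.46 and 14.54. Other tissue markers set several arrays apart. Sln (sarcolipin, a regulator of the atrial calcium pump) was 4.47, 5.37 and 5.42 in RW-MS 2, 6 and 8 and at least 11.78 in the other 12 arrays. These 3 arrays also had a low mean of adipocyte markers (-1.38, -0.63 and -0.999 relative to the mean over all arrays), as had RW-SS 4 (-1.22). RW-MS 7 held thymus transcripts: Rag1, the recombinase of developing lymphocytes, was 9.70 there and at most 2.98 in the other RW-MS arrays. In RW-SS 7 the 3' probe set of Gapdh exceeded the 5' probe set by 0.94, against at most 0.36 in the other 14. Red cell markers were highest in RW-SS 4 and 2 (means of 1.08 and 0.78, against at most 0.42 elsewhere). Results are therefore given with all arrays and without the 3 RW-MS arrays whose Sln was below 8 (7 against 5 arrays).

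**Figure D1:**
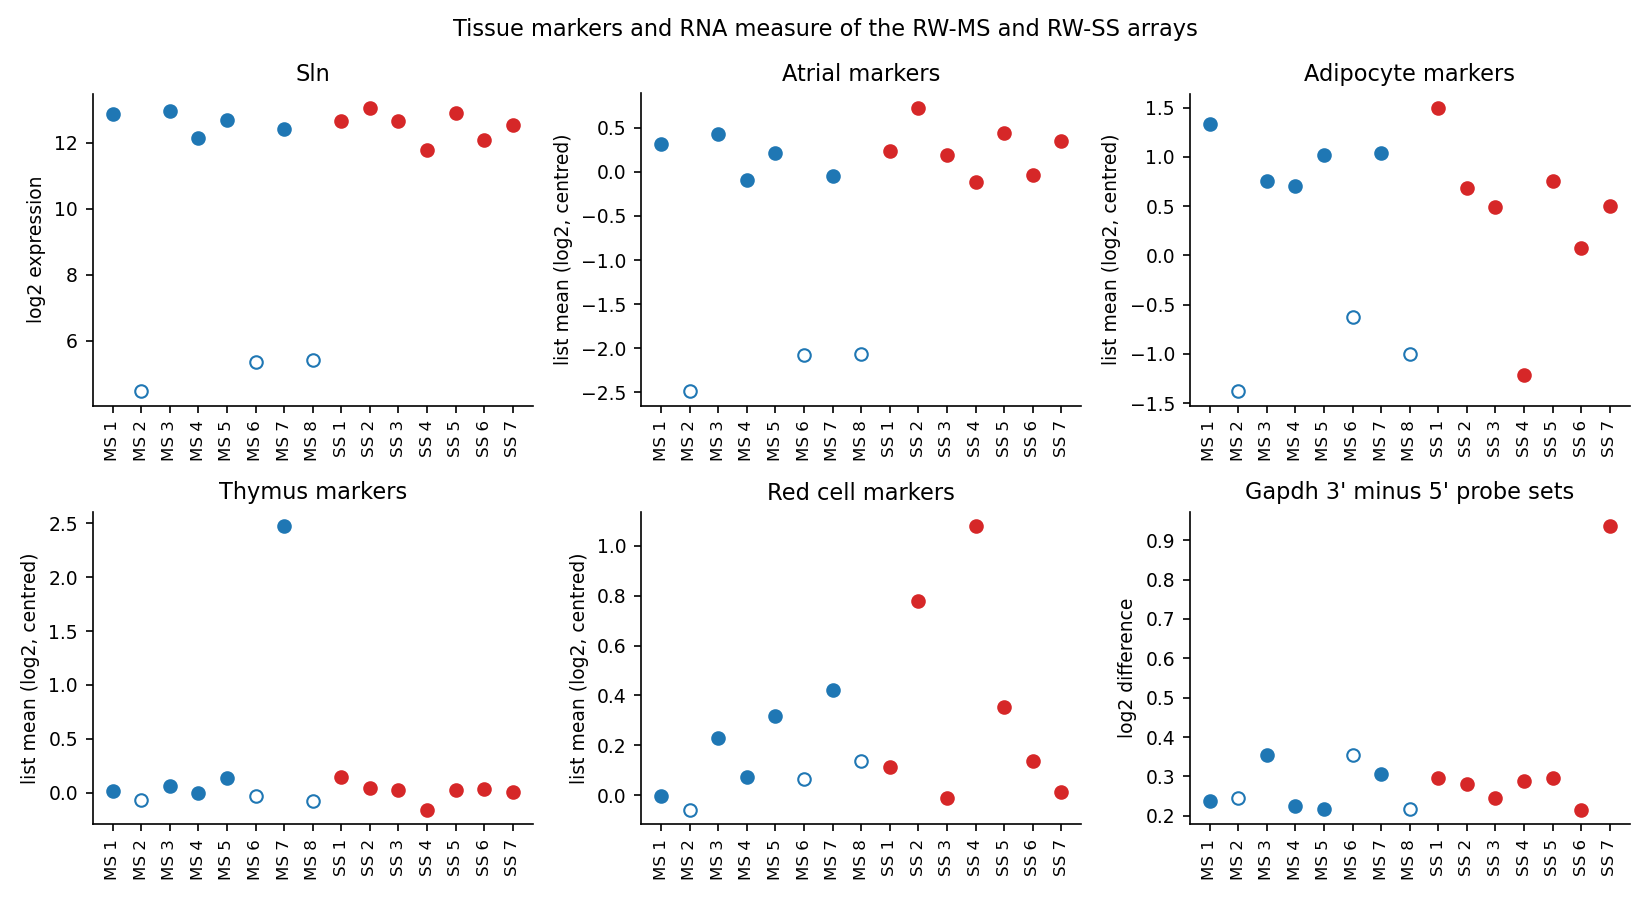
Each panel plots 1 measure in the 8 RW-MS (blue) and 7 RW-SS (red) arrays, in log2 units, with list means centred on the mean over all 45 arrays. Open circles are the 3 RW-MS arrays with Sln below 8; RW-MS 7 stands apart in thymus markers (2.47) and RW-SS 7 in the Gapdh difference (0.94).

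Of 9295 genes tested, 541 (5.82%) differed between the smokes when the spread was estimated over all 45 arrays (limma, adjusted p under 0.05), 204 higher (2.19%) and 337 lower (3.63%) in sidestream hearts. Most differences were small: 8 of the higher and 3 of the lower genes differed by at least 1.5-fold, and 1 and 3 with the low-Sln arrays left out. Without the low-Sln arrays 521 genes (5.61%) passed, 240 higher (2.58%) and 281 lower (3.02%), and 317 genes passed both ways with the same direction. After further quantile normalization the latter split was 332 higher and 181 lower. These counts rest on the pooled spread. The median SD of a gene was 0.121 in RW-MS and 0.118 in RW-SS, against 0.0860 to 0.0996 in the other 4 groups, and a limma fit of the 15 arrays alone called 4 genes (0.043%): Dbp, Idh1, Acin1 and Snrpd3. It gave 1362 genes an unadjusted p under 0.05, 538 of the 541 among them. Both fits hold the same group differences, so this overlap is no separate support. The limma fit of both groups alone called 7 genes (0.0753%) without the low-Sln arrays, with Dbp and Asb6 among them. In what follows, rose and fell, and adjusted p values with no other source, refer to the limma fit over all 45 arrays. In 39 genes (0.42%) the groups did not overlap, with every RW-SS array above every RW-MS array in 14 (0.151%) and below in 25 (0.269%).

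RW-SS 7 weighed on the counts: without it 364 genes passed, 293 of them among the 541. Without RW-SS 7, RW-MS 7 and the low-Sln arrays together, an alternative chosen after seeing the data, 399 passed, 232 of them among the 541. Without RW-MS 2 the count was 292, and without the low-Sln arrays and RW-MS 3 it was 152. The part of the odd arrays' RNA quality and tissue makeup in single genes was not tested beyond these values.

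Factors of the circadian output were lower in sidestream hearts. Of the 8 tested 4 fell and 0 rose (50%, against 5.82% of all genes). The counts were the same without the low-Sln arrays (50%, against 5.61%). The median difference of the list was -0.22 with all arrays, against 0.00054 over all genes. Of 10 core clock genes 1 rose and 0 fell (10%). The 250 bases before the start of 4 clock genes that moved are shown because these genes moved between the smokes, Arntl against the other 3. The start is that of the transcript in the RefSeq promoter table; for Dbp and Arntl the RefSeq gene span begins before it, and for Arntl the first of 2 entries is printed. They are RefSeq sequences (GRCm38.p6), written 5′ to 3′ on the gene's strand, with motif matches in capitals. The motifs searched were the E-box CACGTG, bound by CLOCK and BMAL1, the D-box TTATGTAA, bound by DBP and HLF, and the core AGGTCA, bound by ROR and REV-ERB receptors, on both strands.
Dbp (chr7:45704997-45705246, plus strand): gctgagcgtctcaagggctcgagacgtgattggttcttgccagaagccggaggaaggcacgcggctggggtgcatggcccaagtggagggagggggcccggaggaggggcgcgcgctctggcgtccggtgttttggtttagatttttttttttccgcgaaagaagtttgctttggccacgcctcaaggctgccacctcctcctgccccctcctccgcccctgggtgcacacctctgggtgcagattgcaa
Hlf (chr11:90390918-90391167, minus strand): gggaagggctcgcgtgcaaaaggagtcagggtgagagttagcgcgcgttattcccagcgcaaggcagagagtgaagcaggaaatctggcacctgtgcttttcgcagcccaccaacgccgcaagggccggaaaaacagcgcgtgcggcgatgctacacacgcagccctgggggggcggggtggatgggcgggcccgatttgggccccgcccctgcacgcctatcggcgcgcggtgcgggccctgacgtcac
Nr1d2 (chr14:18239107-18239356, minus strand): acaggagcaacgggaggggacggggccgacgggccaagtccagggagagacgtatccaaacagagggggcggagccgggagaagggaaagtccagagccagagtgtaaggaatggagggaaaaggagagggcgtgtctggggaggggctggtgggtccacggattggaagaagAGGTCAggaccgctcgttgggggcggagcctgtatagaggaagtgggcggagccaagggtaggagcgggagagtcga
Arntl (chr7:113207215-113207464, plus strand): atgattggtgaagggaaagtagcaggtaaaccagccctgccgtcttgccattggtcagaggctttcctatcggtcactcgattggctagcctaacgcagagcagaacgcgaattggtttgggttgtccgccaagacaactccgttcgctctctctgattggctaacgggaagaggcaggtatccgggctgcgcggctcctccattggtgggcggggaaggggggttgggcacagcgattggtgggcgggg
Nr1d2 held the single match in these windows and in the second Arntl entry, to the receptor core, 77 bases before the start. Among the same windows of 32851 promoters, 6.02% held CACGTG, 0.819% TTATGTAA and 14% AGGTCA. Bhlhe40, the other member that moved, is named without a sequence.

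Dbp, an activator driven by the clock, was 10.62, 10.78 and 10.89 in RW-MS (lowest, median and highest, the order used throughout) and 9.60, 10.04 and 10.37 in RW-SS. Every sidestream heart lay under every mainstream heart. Dbp was 1.62-fold lower (-0.70 ± 0.08, adjusted p = 5.24e-07). The 5 RW-MS arrays with Sln above 8 held 10.62, 10.84, 10.81, 10.69 and 10.89, which left the difference as it was (-0.70 ± 0.09, adjusted p = 4.02e-05). Both probe sets gave it (-0.68 for the second), and the limma fit of both groups alone gave an adjusted p of 0.0072, or 0.046 without the low-Sln arrays.

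Bhlhe40, a repressor of CLOCK and BMAL1, was 8.68, 8.85 and 8.93 in RW-MS and 8.03, 8.46 and 8.67 in RW-SS. The groups did not overlap (-0.39 ± 0.07, adjusted p = 0.00081). Hlf, a relative of Dbp, was 8.26, 8.55 and 8.73 in RW-MS and 7.78, 8.18 and 8.39 in RW-SS, where 4 of 7 arrays lay under every mainstream array (-0.40 ± 0.09, adjusted p = 0.0057). Nr1d2, which encodes the repressor REV-ERB beta, fell by 0.20 ± 0.05 on the log2 scale (adjusted p = 0.010). Arntl, which REV-ERB receptors repress, went the other way, with 4.96, 5.29 and 5.64 in RW-MS and 5.58, 5.68 and 6.15 in RW-SS (0.47 ± 0.13, adjusted p = 0.022). The Arntl rise was not called without the low-Sln arrays (0.43 ± 0.15, adjusted p = 0.070) nor without RW-MS 2 or 4 or RW-SS 6 (adjusted p up to 0.059). Nr1d1 (REV-ERB alpha, -0.24 ± 0.08, adjusted p = 0.062) and Per2 (a period repressor, -0.21 ± 0.09, adjusted p = 0.16) did not pass. In the limma fit of both groups alone, adjusted p was 0.085 for Bhlhe40, 0.10 for Hlf, 0.12 for Nr1d2 and 0.092 for Arntl.

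Relative to filtered air, Dbp was -1.03 in sidestream and -0.33 in mainstream hearts. Bhlhe40 was -0.77 and -0.38, and Hlf -0.53 and -0.13. Nr1d1 was low under both smokes (-1.15 and -0.90). Arntl was 0.21 and -0.27, neither past the threshold (adjusted p = 0.24 and 0.21, limma). Both differences from air use the same RW-SC arrays.

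**Figure D2:**
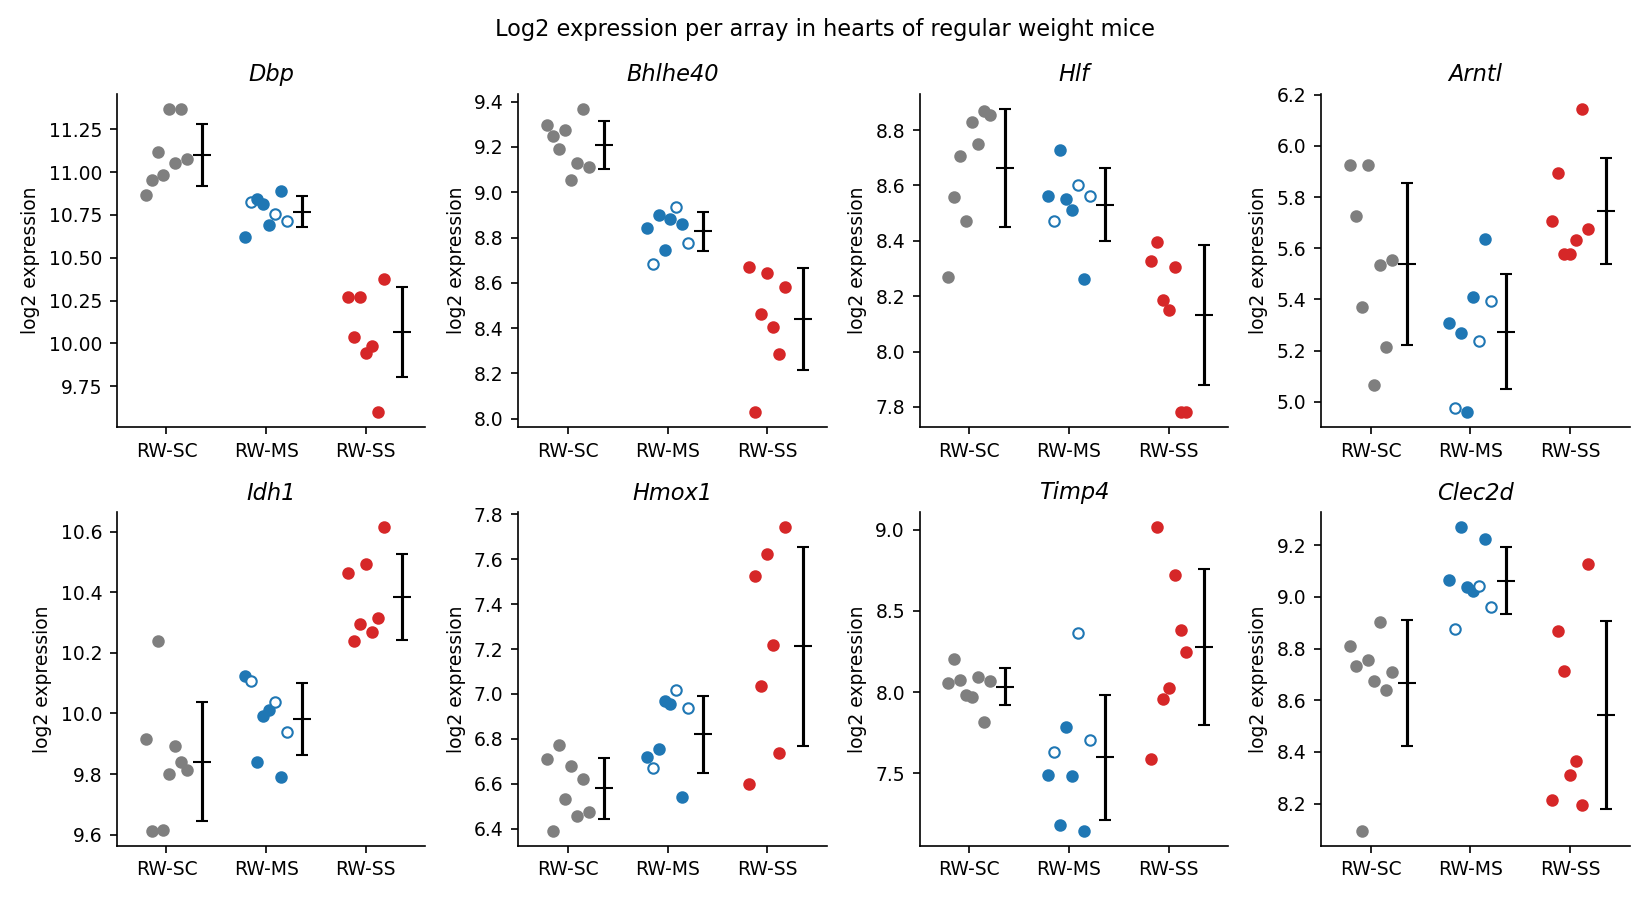
Log2 expression of 8 genes in each array of the air (RW-SC, grey), mainstream (RW-MS, blue) and sidestream (RW-SS, red) groups, with the mean and SD at the right of each. Open circles are the 3 RW-MS arrays with Sln below 8; RW-SS and RW-MS do not overlap for Dbp, Bhlhe40 and Idh1.

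Idh1, the cytosolic isocitrate dehydrogenase that makes NADPH, was higher in sidestream hearts. It was 9.79, 10.003 and 10.12 in RW-MS and 10.24, 10.31 and 10.61 in RW-SS. All sidestream hearts lay above all mainstream hearts (0.40 ± 0.06, adjusted p = 0.00032, and 0.029 in the limma fit of both groups alone). The 5 RW-MS arrays with Sln above 8 held 10.12, 9.84, 9.99, 10.01 and 9.79, and the difference from them was 0.43 ± 0.07 (adjusted p = 0.0011). Relative to air Idh1 was 0.54 in sidestream hearts (adjusted p = 3.86e-08) and 0.14 in mainstream hearts (adjusted p = 0.18, limma).

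Of 20 NRF2 targets 2 rose and 0 fell (10%, against 5.82% of all genes), around a list median of 0.0034. The counts were the same without the low-Sln arrays. Hmox1, which breaks down heme, was 6.54, 6.85 and 7.02 in RW-MS and 6.60, 7.22 and 7.74 in RW-SS. In RW-SS 5 of 7 arrays lay above every mainstream array (0.39 ± 0.11, adjusted p = 0.026). Nqo1, a quinone reductase that the aryl hydrocarbon receptor also controls, was 7.84, 8.26 and 8.42 in RW-MS and 8.30, 8.50 and 8.72 in RW-SS (0.25 ± 0.07, adjusted p = 0.039). RW-SS 7 was the highest array for both genes, and without it Hmox1 was 0.30 (adjusted p = 0.086) and Nqo1 0.21 (adjusted p = 0.10). Leaving out 1 array ended the Hmox1 call for RW-MS 2 or RW-SS 2, 4 or 7 (adjusted p up to 0.086) and the Nqo1 call for RW-MS 2, 5 or 7 or RW-SS 2, 3, 4 or 7 (adjusted p up to 0.10). Hmox1 was 0.25 (adjusted p = 0.20) without RW-SS 2 and 4, the arrays highest in red cell markers.

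Of 8 aryl hydrocarbon receptor genes 1 rose, Nqo1, and 0 fell (12.5%, against 5.82% of all genes). Cyp1a1 was 5.43, 5.88 and 6.19 in RW-MS and 5.26, 5.55 and 5.85 in RW-SS. The groups overlapped and the difference did not pass (-0.32 ± 0.12, adjusted p = 0.11). Without the low-Sln arrays the Cyp1a1 difference was -0.34 and did not pass. Without RW-MS 7 and RW-SS 7 as well, an alternative chosen after seeing the data, it passed (-0.51, adjusted p = 0.041). Of 15 iron handling genes 2 rose (13.3%, against 5.82% of all genes). They were Hmox1 and Ireb2, an iron-regulatory protein (0.14 ± 0.04, adjusted p = 0.026). Ireb2 was not called without RW-SS 1 or 7 (adjusted p up to 0.064) or without the low-Sln arrays (adjusted p = 0.056).

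Of 25 genes that glucocorticoids induce 3 rose and 0 fell (12%, against 5.82% of all genes), with a list median of 0.10. Glul (glutamine synthetase) was 11.52, 11.68 and 11.77 in RW-MS and 11.70, 11.92 and 12.10 in RW-SS (0.23 ± 0.05, adjusted p = 0.0071). Its other probe set gave 0.06. Cdkn1a, the cell cycle inhibitor p21, was the 1 of 18 growth arrest and p53 targets that rose (5.56%, against 5.82% of all genes). It differed by 0.27 ± 0.08 (adjusted p = 0.038), and by 0.18 (adjusted p = 0.20) without the low-Sln arrays. Tsc22d3, the glucocorticoid-induced leucine zipper, rose (0.26 ± 0.08, adjusted p = 0.038), also without the low-Sln arrays (0.29 ± 0.09), by 1 of its 3 probe sets (the others gave 0.14 and 0.15). Leaving out 1 array ended the Cdkn1a call for RW-MS 2, 6 or 8 or RW-SS 2, 5, 6 or 7 (adjusted p up to 0.085) and the Tsc22d3 call for RW-MS 1, 2 or 3 or RW-SS 2, 5, 6 or 7 (adjusted p up to 0.093).

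The 15 largest falls were those of Cacna2d1, Dbp, Akap9, Ddx6, Atrx, Clec2d, Washc4, Xrn2, Malat1, Itgb6, Phlda1, Angpt1, Far1, Lima1 and Fscn1. All 15 passed without the low-Sln arrays. RW-SS 7, the array with the large Gapdh difference, was the lowest sidestream array in 11 of the 15. Without it 14 passed, and without it, RW-MS 7 and the low-Sln arrays 13 passed.

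Cacna2d1, a subunit of the L-type calcium channel, was 9.11, 9.66 and 9.86 in RW-MS and 7.99, 9.04 and 9.43 in RW-SS (-0.72 ± 0.12, adjusted p = 0.00055). Without RW-SS 7 its difference was -0.56 (adjusted p = 0.00089). Akap9, an anchor for protein kinase A, was 6.92, 7.19 and 7.37 in RW-MS and 5.26, 6.71 and 7.01 in RW-SS (-0.63 ± 0.13, adjusted p = 0.0037). The lowest of these was RW-SS 7 and the next 6.54, and without RW-SS 7 the difference was -0.42 (adjusted p = 0.0028). Washc4, a subunit of the endosomal WASH complex, was 6.64, 6.84 and 7.03 in RW-MS and 5.41, 6.52 and 6.63 in RW-SS, without overlap (-0.51 ± 0.10, adjusted p = 0.0020). All 3 of its probe sets passed.

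Malat1, a nuclear long noncoding RNA, was 11.01, 11.08 and 11.39 in RW-MS and 10.24, 10.72 and 10.88 in RW-SS. The groups did not overlap (-0.49 ± 0.09, adjusted p = 0.0013), and all 5 probe sets passed, with differences from -0.50 to -0.45. Lima1, an actin-binding protein, was 7.75, 7.92 and 8.01 in RW-MS and 6.98, 7.55 and 7.70 in RW-SS, again without overlap (-0.45 ± 0.06, adjusted p = 6.02e-05). Its other probe sets gave -0.12 and -0.09 and did not pass.

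For several of the 15, probe sets disagreed. Ddx6, an RNA helicase of processing bodies, fell by 0.58 ± 0.12 on the log2 scale (adjusted p = 0.0022), and its 3 probe sets spanned -0.58 to -0.03. Atrx, a chromatin remodeler, fell by 0.52 ± 0.10 on the log2 scale (adjusted p = 0.0016), with 3 of 5 probe sets past the threshold in a span of -0.64 to 0.08. Xrn2, a nuclear exonuclease, fell by 0.50 ± 0.10 on the log2 scale (adjusted p = 0.0015), and its other probe sets gave 0.07 and -0.11. Far1, which makes fatty alcohols for ether lipids, fell by 0.45 ± 0.10 on the log2 scale (adjusted p = 0.0068) by 1 of 5 probe sets.

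Acin1 and Snrpd3, both parts of splicing machinery, did not overlap between the groups. Acin1, chosen after its values were seen, was 7.23, 7.36 and 7.50 in RW-MS and 6.94, 7.08 and 7.13 in RW-SS (-0.29 ± 0.05, adjusted p = 0.00053), while its other probe set gave 0.03. Snrpd3 was 9.70, 9.79 and 9.89 in RW-MS and 9.43, 9.58 and 9.61 in RW-SS (-0.26 ± 0.04, adjusted p = 0.00055), and its other probe sets gave 0.05 and 0.18. In the limma fit of both groups alone adjusted p was 0.029 for Acin1 and 0.029 for Snrpd3.

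Clec2d, a ligand of a natural killer cell receptor, was 8.87, 9.04 and 9.27 in RW-MS and 8.19, 8.37 and 9.13 in RW-SS. RW-SS 7 was the highest sidestream array and the other 6 lay under every mainstream array (-0.52 ± 0.11, adjusted p = 0.0043). Itgb6, an integrin subunit, fell by 0.48 ± 0.11 on the log2 scale (adjusted p = 0.0052), while its other probe set gave -0.11 and did not pass. Fscn1, an actin bundler, fell by 0.44 ± 0.10 on the log2 scale (adjusted p = 0.0068). The other Fscn1 probe sets gave -0.07, -0.06 and 0.06 and did not pass. Phlda1 was 9.18, 9.49 and 9.95 in RW-MS and 8.60, 9.11 and 9.25 in RW-SS (-0.47 ± 0.14, adjusted p = 0.032), and was not called without RW-MS 6 or 7 or RW-SS 2 or 7 (adjusted p up to 0.083).

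Timp4, a metalloproteinase inhibitor of the heart, was 7.15, 7.56 and 8.37 in RW-MS and 7.59, 8.25 and 9.02 in RW-SS (0.68 ± 0.14, adjusted p = 0.0038). The highest mainstream value was that of RW-MS 6, a low-Sln array, and the 5 RW-MS arrays with Sln above 8 held 7.49, 7.18, 7.78, 7.48 and 7.15. Against those 5 the difference was 0.86 ± 0.15 (adjusted p = 0.0013), and RW-SS 1 was the single sidestream array within the mainstream range. Relative to air Timp4 was 0.24 in sidestream (adjusted p = 0.22) and -0.44 in mainstream hearts (adjusted p = 0.049, limma).

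Of 19 angiogenic ligands and receptors 2 fell and 0 rose (10.5%, against 5.82% of all genes). Angpt1, a ligand of the endothelial receptor TIE2, was 6.19, 6.42 and 6.83 in RW-MS and 5.42, 6.12 and 6.32 in RW-SS (-0.47 ± 0.09, adjusted p = 0.0025). Vegfb, of the VEGF family, fell by 0.23 ± 0.05 on the log2 scale (adjusted p = 0.0071). With the low-Sln arrays left out 1 of the 19 rose and 2 fell (15.8%, against 5.61% of all genes). The rise was that of Apln, the ligand of the apelin receptor (0.28, adjusted p = 0.017). Of 24 genes for fibrillar collagens and their processing 1 rose and 1 fell (8.33%, against 5.82% of all genes), both modifying enzymes. P4hb, a subunit of prolyl hydroxylase, rose (0.23 ± 0.05, adjusted p = 0.0050) with its highest value in RW-SS 7, and was 0.17 without the low-Sln arrays (adjusted p = 0.064). Plod2, a lysyl hydroxylase, fell by 0.29 ± 0.06 on the log2 scale (adjusted p = 0.0025), while its other probe set gave -0.01.

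Of 20 interferon-stimulated genes 1 rose and 0 fell (5%, against 5.82% of all genes). Their mean, relative to all arrays, stood at 1.17 in RW-SS 7, while the remaining 6 sidestream arrays spanned -0.21 to 0.29, against -0.19 to 0.20 in RW-MS, and 1 air array, RW-SC 4, reached 0.82. The median difference of the list was 0.15 with all arrays, 0.0069 without RW-SS 7 and -0.08 in obese mice. The gene that rose was Mx2, an antiviral GTPase (0.24 ± 0.06, adjusted p = 0.018), not called without RW-MS 2 (adjusted p up to 0.055). Gbp6 and Ube2l6 were not on that list. Gbp6, an interferon-induced GTPase, was 6.07, 6.44 and 6.78 in RW-MS and 6.60, 6.95 and 8.25 in RW-SS (0.66 ± 0.17, adjusted p = 0.015), with the highest value in RW-SS 7 and the next at 7.14. It was 0.47 without RW-SS 7 (adjusted p = 0.055). Ube2l6, the conjugating enzyme of ISG15, rose (0.60 ± 0.16, adjusted p = 0.019) and was not called without RW-MS 2 or RW-SS 2 or 4 (adjusted p up to 0.065). Its highest values were those of RW-SS 4 (7.27) and RW-SS 2 (6.64), the arrays highest in red cell markers, and it was 5.91 in RW-SS 7. Neither Gbp6 nor Ube2l6 passed without the low-Sln arrays (adjusted p = 0.069 for Gbp6 and 0.095 for Ube2l6).

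Of 8 genes for NAD synthesis and sirtuins 2 fell (25%, against 5.82% of all genes), as they did without the low-Sln arrays. The list median was -0.01, with 4 genes above and 4 below 0. Sirt3, the mitochondrial deacetylase, was 8.56, 8.73 and 8.91 in RW-MS and 8.24, 8.46 and 8.63 in RW-SS (-0.30 ± 0.07, adjusted p = 0.0050), and Nmnat1, the nuclear NAD synthase, fell by 0.30 ± 0.05 on the log2 scale (adjusted p = 0.00081), while its other probe set gave -0.05 and did not pass. Of 33 fatty acid oxidation genes 2 fell and 0 rose (6.06%, against 5.82% of all genes). Decr2, a peroxisomal reductase, was 6.23, 6.35 and 6.54 in RW-MS and 5.87, 6.10 and 6.32 in RW-SS (-0.31 ± 0.06, adjusted p = 0.0015). Eci1, a mitochondrial isomerase, fell by 0.19 ± 0.06 on the log2 scale (adjusted p = 0.035), and was -0.11 without RW-SS 7, 1 of the arrays whose loss ended the call (RW-MS 2, 4, 6 or 8 or RW-SS 7, adjusted p up to 0.10). Decr2 alone passed without the low-Sln arrays (3.03%, against 5.61% of all genes).

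Of 35 respiratory chain genes 3 fell and 0 rose (8.57%, against 5.82% of all genes), and none passed without the low-Sln arrays. They were Ndufa10 of complex I (-0.10 ± 0.03, adjusted p = 0.027; -0.08 by its other probe set, not past) and Cox7a1 (-0.09 ± 0.03, adjusted p = 0.037) and Cox8b (-0.08 ± 0.02, adjusted p = 0.044) of complex IV. Ndufa10 was not called without RW-MS 2 or RW-SS 7 (adjusted p up to 0.088), Cox7a1 without RW-MS 2, 6 or 8 or RW-SS 1, 2, 5 or 7 (adjusted p up to 0.080), and Cox8b without RW-MS 2, 3, 4 or 6 or RW-SS 1, 2, 5 or 7 (adjusted p up to 0.099). Of 24 glycolysis and pyruvate genes 1 rose and 0 fell (4.17%, against 5.82% of all genes). It was Pdha1, a subunit of pyruvate dehydrogenase (0.09 ± 0.03, adjusted p = 0.026), and its other probe set gave -0.19. Of 20 ribosomal protein genes 1 fell and 0 rose (5%, against 5.82% of all genes). It was Rps2 (-0.09 ± 0.03, adjusted p = 0.035), not called without RW-MS 2 or RW-SS 1 or 7 (adjusted p up to 0.089).

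Of 25 proteasome subunits 4 fell and 0 rose (16%, against 5.82% of all genes), by small amounts around a list median of -0.06. Psmb5, a catalytic subunit, was 10.70, 10.75 and 10.84 in RW-MS and 10.61, 10.62 and 10.69 in RW-SS. The groups did not overlap (-0.13 ± 0.03, adjusted p = 0.0037). Psma4 differed by -0.14 ± 0.03 (adjusted p = 0.0066), Psma2 by -0.11 ± 0.03 (adjusted p = 0.021) and Psmd14 by -0.12 ± 0.04 (adjusted p = 0.048, limma). Psma2 was not called without RW-MS 2 or RW-SS 7 (adjusted p up to 0.072), nor Psmd14 without RW-MS 1, 2, 3, 4 or 5 or RW-SS 1, 3, 4, 5 or 7 (adjusted p up to 0.16). Of 26 genes for chaperones of the endoplasmic reticulum and the unfolded protein response 1 rose and 1 fell (7.69%, against 5.82% of all genes). Hsp90b1 (GRP94) was 0.19 ± 0.04 by its brighter probe set (adjusted p = 0.0052) and -0.41 by the other, both past the threshold, so its direction is not settled. Dnajc3, an inhibitor of the kinase PERK, fell by 0.22 ± 0.06 on the log2 scale (adjusted p = 0.027) by 1 of 5 probe sets, and was not called without RW-MS 2 or 3 or RW-SS 7 (adjusted p up to 0.092). With the low-Sln arrays left out 1 of the 26 rose and 3 fell (15.4%, against 5.61% of all genes). The 3 were Dnajc3, Ddit3 (the stress factor CHOP, -0.20, adjusted p = 0.025) and Sec61b (a translocon subunit, -0.28, adjusted p = 0.039).

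The 4 largest rises with all arrays were those of atrial genes. Sln, the gene by which RW-MS 2, 6 and 8 were singled out, differed by 2.73 with all arrays and -0.09 without the 3, and since its own values chose them both are given as a description with no test. The atrial myosin light chains Myl7 and Myl4 differed by 2.48 ± 0.76 and 2.46 ± 0.74, and the natriuretic peptide Nppa by 1.23 ± 0.37 (adjusted p = 0.044, 0.040 and 0.043, limma). Myl7 was 5.46, 6.73 and 7.26 in RW-MS 2, 6 and 8, and 13.56, 13.38, 12.91, 13.32 and 13.11 in the other RW-MS arrays. RW-SS held 12.35, 13.30 and 13.62, which overlaps those 5. Without the 3 arrays the differences were -0.06 ± 0.21 for Myl7, -0.0017 ± 0.22 for Myl4 and -0.01 ± 0.13 for Nppa. Of the 13 other atrial markers 4 rose with all arrays (30.8%, against 5.82% of all genes) and 0 passed without the 3, with list medians of 0.55 and -0.01. These markers share the 3 arrays with Sln, so the values with and without them are descriptions too. The 4 were Myl7, Myl4, Nppa and Tbx5, a cardiac transcription factor (0.31 ± 0.09, adjusted p = 0.044). Each of these calls was lost without any 1 of RW-MS 2, 6 or 8 or RW-SS 1, 2, 3, 5 or 7. Further arrays whose loss ended a call were RW-SS 6 for Myl7, and RW-SS 4 and RW-MS 4 and 7 for Tbx5 (adjusted p up to 0.13 for Myl7, 0.12 for Myl4, 0.13 for Nppa and 0.11 for Tbx5).

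Of the 15 largest rises 3 passed without the low-Sln arrays, Timp4, Idh1 and Hmox1, and 7 without RW-SS 7. Lgals3 (galectin-3) was 6.36, 6.16 and 6.05 in RW-MS 2, 6 and 8 and 7.76, 8.09, 7.19, 7.62 and 7.63 in the other RW-MS arrays. Its difference of 0.72 ± 0.22 (adjusted p = 0.045) became 0.17 ± 0.18 without the 3 (adjusted p = 0.59), and leaving out RW-MS 2, 4, 6 or 8 or RW-SS 1, 2, 5 or 7 ended the call (adjusted p up to 0.12). Lad1, a basement membrane anchor, went from 0.50 ± 0.13 (adjusted p = 0.012) to 0.27 ± 0.12 (adjusted p = 0.17). Fhl1, a LIM protein of muscle, went from 0.21 to 0.14 (adjusted p = 0.017 and 0.14). With Nppa it made up the 2 of 17 stretch and hypertrophy genes that rose (11.8%, against 5.82% of all genes). Gsn (gelsolin) was the 1 of 15 fibroblast markers that rose (6.67%, against 5.82% of all genes). It went from 0.24 to 0.16 (adjusted p = 0.012 and 0.099), and its 6 probe sets spanned -0.14 to 0.24.

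Kcna1, a potassium channel (0.44 ± 0.12, adjusted p = 0.020), Prss29, a serine protease (0.42 ± 0.13, adjusted p = 0.047), and Clba1 (0.38 ± 0.11, adjusted p = 0.038) also rose with all arrays. The other probe sets of Prss29 gave -0.12 and 0.14 and did not pass. Against the 5 RW-MS arrays with Sln above 8 their adjusted p was 0.074, 0.070 and 0.097 (limma). Kcna1 was not called without RW-SS 2, Prss29 without RW-MS 1, 2, 3, 4 or 6 or RW-SS 2, 4, 5 or 6, and Clba1 without RW-MS 2, 3, 6 or 7 or RW-SS 2 or 7 (adjusted p up to 0.058, 0.13 and 0.11). Of 12 smooth muscle and pericyte markers 1 rose and 0 fell (8.33%, against 5.82% of all genes), in a list with a median of -0.18. It was Des (desmin, which heart muscle also makes), which rose by 0.22 ± 0.07 (adjusted p = 0.040). Its other probe set gave 0.10 and did not pass. Des was not called without RW-MS 3, 5 or 7 or RW-SS 4, 5, 6 or 7 (adjusted p up to 0.13).

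**Figure D3:**
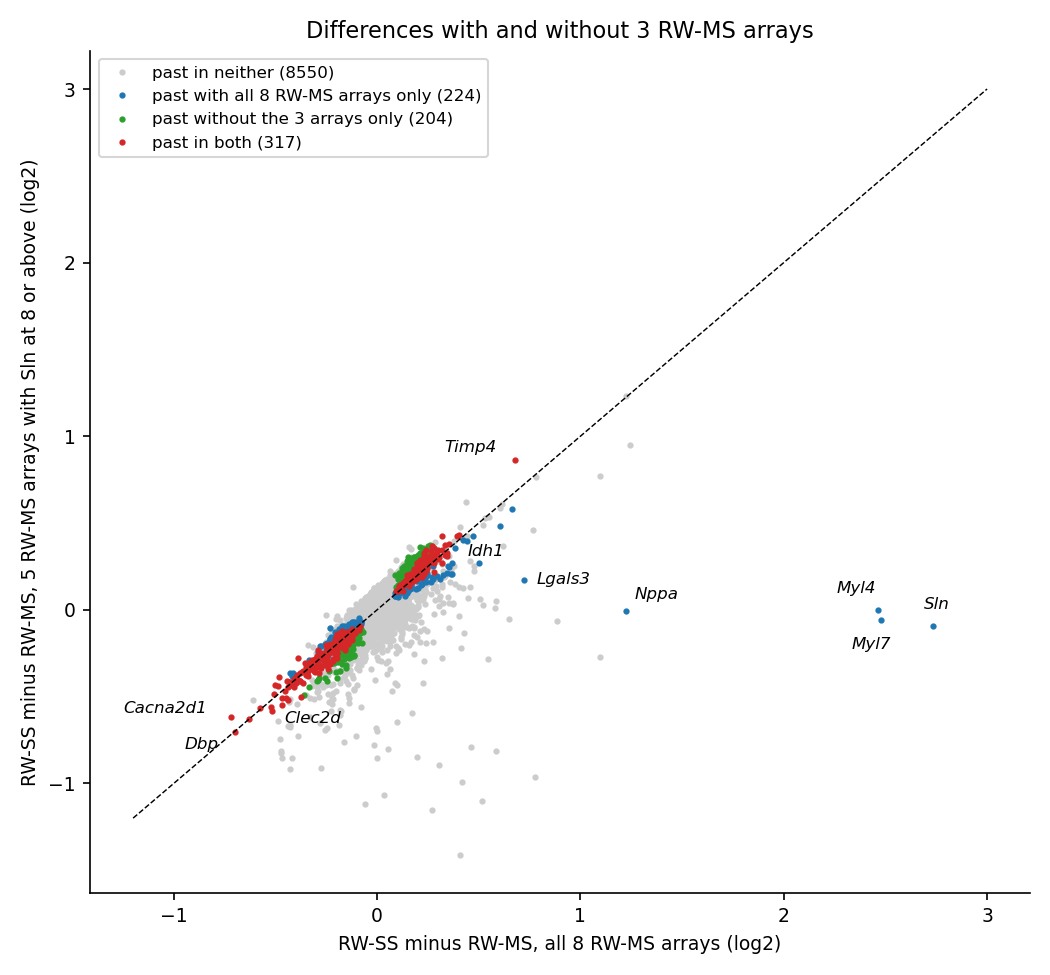
Each point is 1 of 9295 genes, with the RW-SS minus RW-MS difference (log2) over all 8 RW-MS arrays on the x axis and over the 5 with Sln at 8 or above on the y axis; the dashed line marks equal values. Sln, Myl7, Myl4 and Nppa lie between 1.23 and 2.73 on the x axis and near 0 on the y axis, from which Sln's low arrays were left out by its own values, while Dbp is at -0.70 on both.

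The 8 largest rises without the low-Sln arrays were those of Timp4, Idh1, Asb6, Hmox1, Prkd1, Nat8f4, Nmu and Gp1bb. Asb6, a SOCS box protein, was 0.43 ± 0.08 higher (adjusted p = 0.0023, and 0.040 in the limma fit of both groups alone), against 0.32 ± 0.08 with all arrays, where its other probe set gave 0.14 and did not pass. Prkd1 (protein kinase D1) was 0.38 ± 0.08 (adjusted p = 0.0069) and Nat8f4 0.37 ± 0.08 (adjusted p = 0.0064). Nmu, the peptide neuromedin U, was 0.37 ± 0.09 (adjusted p = 0.014) and Gp1bb, a platelet glycoprotein, 0.37 ± 0.08 (adjusted p = 0.0092). Nmu and Gp1bb did not pass with all arrays (adjusted p = 0.069 and 0.065, limma). Without the low-Sln arrays the other Gp1bb probe set gave 0.46 and did not pass. The other Nat8f4 probe sets gave 0.28, which passed, and 0.01, which did not. Levels were near the filter cut of 4.90. Over both groups Nat8f4 lay between 4.90 and 5.70, Nmu between 4.96 and 5.77 and Gp1bb between 4.59 and 5.49.

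Several genes that differed from air did not pass between the smokes. Tfrc, the transferrin receptor, was 7.96, 8.67 and 8.88 in RW-MS and 7.30, 8.14 and 9.05 in RW-SS (-0.29 ± 0.19, adjusted p = 0.38), while relative to air it was -2.05 in sidestream and -1.76 in mainstream hearts. Ddit4, a stress-induced inhibitor of mTOR, differed by 0.53 ± 0.18 (adjusted p = 0.068), Pdk4, a pyruvate dehydrogenase kinase, by 0.44 ± 0.19 (adjusted p = 0.15) and Alas2, the heme synthesis enzyme of red cells, by 0.48 ± 0.23 (adjusted p = 0.21, limma). The highest Alas2 values were those of RW-SS 4 and 2, the arrays highest in red cell markers, and without them its difference was 0.05 (adjusted p = 0.92). Myh7, the fetal myosin heavy chain, differed by 0.60 ± 0.19 (adjusted p = 0.055). A p above the threshold does not show that levels were alike.

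With all arrays no gene passed in the lists for hypoxia and HIF1 targets (23 tested), heat shock chaperones (21), basement membrane (17), calcium cycling and ion channels (21), FoxO, autophagy and atrophy (20), immediate early genes (23), inflammation and acute phase (19), cholesterol synthesis (15), fatty acid and triglyceride synthesis (18), cell cycle (10) and glutathione S-transferases (18). Nor did any marker of ventricular muscle (14 tested), endothelium (14), adipocytes (11), macrophages (16), neutrophils (4), lymphocytes (12), red cells (5), lung (5), skeletal muscle (6), thymus (5) or nerve (7). Cacna2d1 and Kcna1, channel genes that passed with all arrays, were not on the list for calcium cycling and ion channels. Among heat shock chaperones, Dnaja1 alone passed once the low-Sln arrays were left out (-0.39, adjusted p = 0.021), or 4.76% of the list against 5.61% of all genes. The median of the adipocyte markers was 0.07 with all arrays and -0.47 without the low-Sln arrays.

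**Figure D4:**
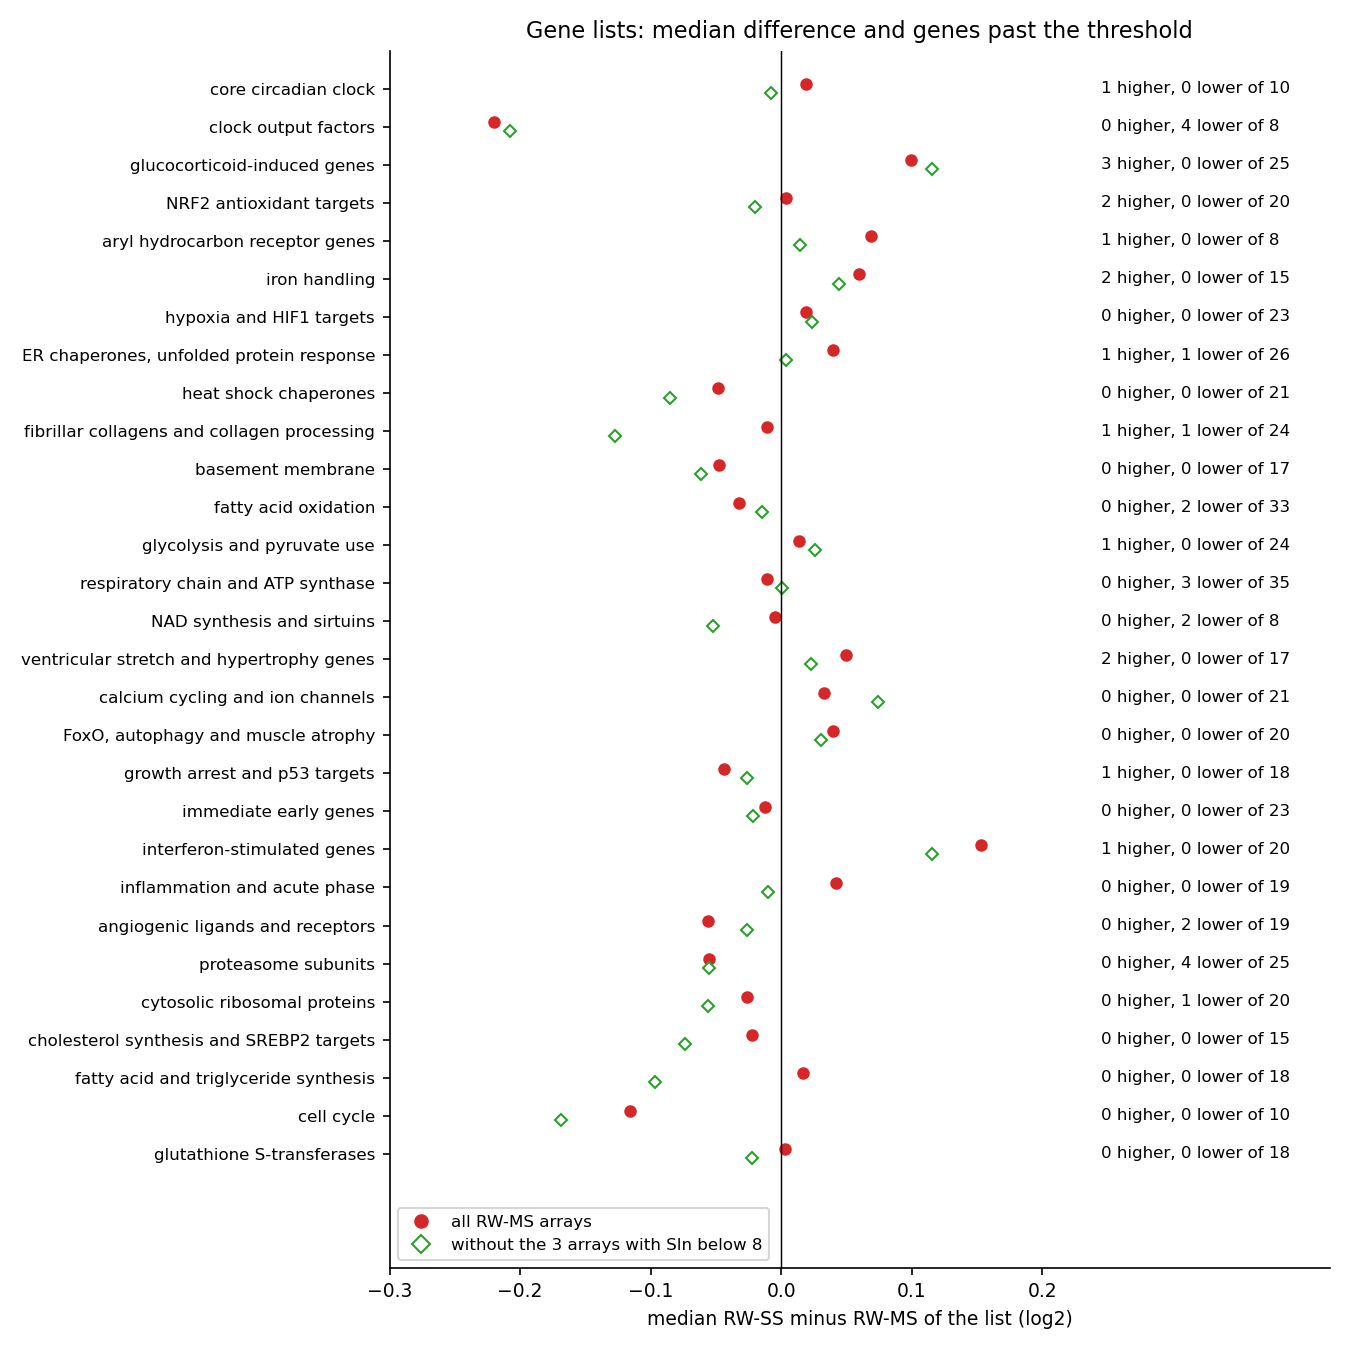
Median RW-SS minus RW-MS difference (log2) of each pathway list with all arrays (filled circles) and without the 3 low-Sln arrays (open diamonds), with the genes past the threshold with all arrays at the right. Clock output factors have the lowest median (-0.22) and interferon-stimulated genes the highest (0.15), the latter at 0.0069 without RW-SS 7.

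The same contrast in obese mice, which shares no array with this one, gave 237 genes (2.55%), 148 higher (1.59%) and 89 lower (0.958%). Further quantile normalization turned this balance to 33 higher and 73 lower, and array weights called 1964 genes. Of the 541 genes 25 passed there with the same sign and 12 with the opposite sign, and 266 (49.2%) had the same sign, against 41.9% of all genes. The clock output fell again, in 4 of 8 genes. Dbp was 10.81, 11.07 and 11.33 in DIO-MS and 10.40, 10.53 and 10.76 in DIO-SS, without overlap (-0.53 ± 0.08, adjusted p = 0.00073). Bhlhe40 was -0.43 ± 0.07 and Hlf -0.50 ± 0.09 there (adjusted p = 0.0010 and 0.0030, limma). Nr1d1 passed in obese mice (-0.42, adjusted p = 0.0064), and Nr1d2 (-0.13) and Arntl (0.33) did not (adjusted p = 0.12 and 0.14).

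Of the 15 largest falls 4 passed in obese mice, Dbp, Ddx6 (-0.61), Atrx (-0.47) and Xrn2 (-0.36), and 14 were negative there. Of the 15 largest rises 0 passed and 6 were negative. The median difference over all genes in obese mice was 0.03. Glul (0.21) and Cdkn1a (0.32) rose in both diets. Among genes that fell in both, 3 are named after their values were seen: Bmpr2, a receptor for bone morphogenetic proteins (-0.36 and -0.36), Prkg1, a cGMP-dependent kinase (-0.35 and -0.29), and Csf1, the macrophage growth factor (-0.34 and -0.40). Of the 4 Csf1 probe sets 2 passed in regular weight mice and the others gave 0.01 and 0.01. In regular weight mice Csf1 was not called without RW-MS 2 or RW-SS 2 (adjusted p up to 0.059).

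The difference between the smokes itself differed between the diets for 784 genes (8.43%) by limma's interaction test, 472 with a higher (5.08%) and 312 with a lower difference in obese mice (3.36%), or 141 and 252 after further quantile normalization. Of the 541 genes 204 were among them, from which nothing is read, since the test uses the same regular weight arrays. Idh1 was -0.07 ± 0.07 in obese mice, an interaction of -0.47 (adjusted p = 0.0042). Timp4 was -0.36 ± 0.15 there (interaction -1.04, adjusted p = 0.0042). Sirt3 was 0.17, Clec2d 0.19 and Decr2 0.07 in obese mice, with interaction adjusted p of 0.0042, 0.0083 and 0.0083 (limma). Cyp1a1 was -1.07 ± 0.13 in obese mice, further below mainstream than in regular weight mice (interaction adjusted p = 0.010).

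The 10 genes of the 541 with the smallest interaction p are given as a description, since being called in regular weight mice and then ranked by the difference between diets favours opposite signs, which all 10 had. Rgs9, a regulator of G protein signalling, was 0.20 ± 0.05 in regular weight and -0.32 ± 0.05 in obese mice (interaction -0.52, adjusted p = 0.00012). Snrpd3 was -0.26 and 0.15, and Psmb5 -0.13 and 0.10. Polr1d, a subunit of RNA polymerases I and III, was -0.15 and 0.12, Lrwd1 -0.19 and 0.29, and Cyb5r1 -0.25 and 0.16. Chmp3, an ESCRT-III subunit, was -0.14 and 0.16, Erp44 -0.12 and 0.12, Bccip -0.13 and 0.13, and Rab25, a small GTPase, 0.23 and -0.23. Within obese mice Snrpd3 and Cyb5r1 did not pass (adjusted p = 0.062 and 0.072, limma). In regular weight mice Lrwd1 was not called without RW-MS 2, 4, 6 or 7 or RW-SS 2, 4, 5 or 6 (adjusted p up to 0.11), nor Bccip without RW-SS 2 (adjusted p up to 0.052). Other probe sets in regular weight mice gave 0.08 for Chmp3, 0.05 for Rgs9, -0.06 for Lrwd1, -0.02 for Polr1d and -0.05 for Erp44, and none of these passed.

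**Figure D5:**
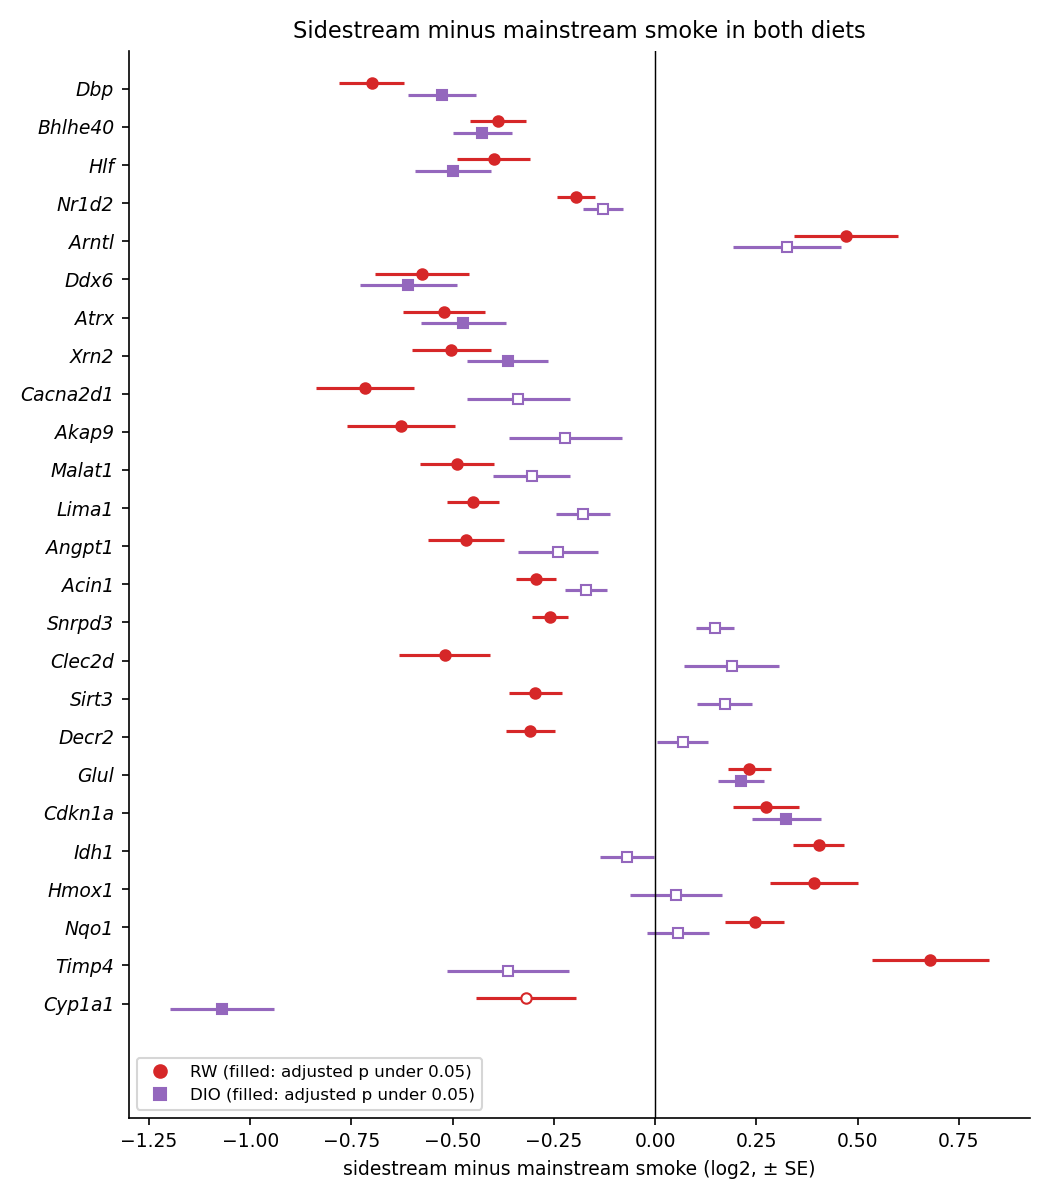
Sidestream minus mainstream difference (log2, bars are ± SE) of 25 genes in regular weight (red circles) and obese mice (purple squares), filled where limma's adjusted p was under 0.05. Dbp, Bhlhe40 and Hlf are filled and left of 0 in both diets, while Idh1 is at 0.40 in regular weight and -0.07 in obese mice.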

How the data were processed

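Gene expression was measured on 45 Affymetrix mouse arrays. The deposited values are log2 expression made with RMA, per the submitters' processing notes; neither software settings nor scan dates were stated in these sources. Of 22690 probe sets, 64 are controls, 20393 are paired with 1 gene, 691 with several and 1606 with none; 20364 were matched to RefSeq. The brightest probe set stood for each of 12394 genes, and the dimmest 25% (mean below 4.90) were left out, which left 9295. Differences were fitted with limma 3.58.1 (R 4.3.3) on all 45 arrays with Benjamini-Hochberg adjustment at 0.05, and the code was tested on simulated data. Tables were made with pandas 2.3.3 under Python 3.11.15 and plots with matplotlib 3.10.9. The members and gene lists were chosen with earlier results of these data known. Genes named are the 15 largest rises and falls past the threshold, the 8 largest without the low-Sln arrays, up to 4 called per list, the panel members described, and the 10 with the smallest interaction p. The labels name no pairing of animals. Deviations of same-numbered arrays correlated from -0.21 to 0.47 by title and -0.45 to 0.47 by description. Whether same-numbered arrays belong together cannot be told from these values. Alternatives covered filters, probe set summaries, array weights, further quantile normalization, replicate blocks, the atrial mean as a covariate and arrays left out.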

Additional observations from a re-analysis of the deposited data

Results flagged for a closer look

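Single arrays stood apart from the rest of their group in 25 of the values examined by Dixon's criterion, which chance alone meets in about 1 in 20 groups. Each of the 87 named genes was examined in RW-SS and in RW-MS, besides measures of the arrays. RW-SS 7 was such an array for Akap9 (5.26), Washc4 (5.41), P4hb (10.40), Gbp6 (8.25), Eci1 (11.64), Psma2 (10.92), Psmd14 (9.67), Dnajc3 (8.53), Bmpr2 (5.69) and Ndufa10 (12.92), and for the 3' minus 5' difference of Gapdh (0.94). RW-MS 7 was one for Nqo1 (7.84), Cacna2d1 (9.11), Vegfb (9.68), Pdha1 (12.50), Ndufa10 (13.07) and Lrwd1 (7.56), and for the means of thymus (2.47) and lymphocyte markers (1.71). RW-MS 2 stood apart for Fscn1 (8.97) and Rps2 (13.08), RW-MS 8 for Erp44 (8.10), RW-SS 2 for Phlda1 (8.60) and Csf1 (8.01), and RW-SS 6 for Nr1d2 (10.76).

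The difference between the smokes differed between the diets by limma's interaction test for 27 of the genes named, against 784 of all 9295 genes (8.43%). That number is no result, since 10 of the genes were chosen for their small interaction p and most others for being called in the same regular weight arrays. The difference in obese minus that in regular weight mice was negative for Timp4 (-1.04), Cyp1a1 (-0.75), Prss29 (-0.71), Rgs9 (-0.52), Asb6 (-0.49), Idh1 (-0.47), Rab25 (-0.46), Nat8f4 (-0.44), Gp1bb (-0.42), Prkd1 (-0.42), Nmu (-0.40), Mx2 (-0.34), Hsp90b1 (-0.24) and Pdha1 (-0.13). It was positive for Clec2d (0.71), Lrwd1 (0.48), Sirt3 (0.47), Cyb5r1 (0.41), Snrpd3 (0.41), Decr2 (0.38), Nmnat1 (0.31), Chmp3 (0.30), Polr1d (0.27), Bccip (0.26), Erp44 (0.24), Psmb5 (0.23) and Psmd14 (0.18).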

How the results depend on the processing

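Precision is limited by the number of arrays, and the counts of called genes by the pooled spread. With the compared groups alone, limma called 4 genes between the smokes in regular weight mice, 7 without the low-Sln arrays and 342 in the interaction. A replicate block by title number gave 30 genes, 0 without the low-Sln arrays (1270 at unadjusted p under 0.05), 13 in obese mice and 483 in the interaction. A replicate block by description number gave 0 (983 unadjusted), 0 (1232 unadjusted), 3 and 29. By title number 3 of 7 RW-SS arrays correlated best with their own number, and by description number 1. Whether same-numbered arrays belong together cannot be told from these values. Array weights gave 106 higher and 333 lower genes between the smokes, 1964 genes in obese mice and 2023 in the interaction. Further quantile normalization gave 236 higher and 282 lower genes, 332 and 181 without the low-Sln arrays, 106 in obese mice (33 higher and 73 lower) and 393 in the interaction (141 and 252). The interaction count was 1256 with the atrial mean as a covariate and 1305 without the low-Sln arrays, an alternative chosen after seeing the data. Without the low-Sln arrays and the 2 RW-SS arrays highest in red cell markers 291 genes passed. Leaving out 1 array gave 292 to 722 genes (without RW-MS 2 and RW-MS 7), and 152 to 644 without the low-Sln arrays (without RW-MS 3 and RW-SS 1). The causes were not tested.

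Of 87 named genes, 73 lost their call with the compared groups alone, and 66 and 77 with the blocks by title and description number. Array weights ended 23 calls, the atrial mean 29 besides 3 that also turned with it, and a trended robust fit 4. Some of the 87, such as Tfrc and Cyp1a1, had no call to lose. With the compared groups alone the calls of Dbp, Idh1, Acin1 and Snrpd3 were left, and with the block by description number none was. The turns of Sln and of the atrial genes that share its low arrays follow from how these alternatives are built, and are values only. With the atrial mean as a covariate Sln was -0.0571, Myl7 -0.0299 and Nppa -0.00853. Against the 5 RW-MS arrays with Sln above 8, Sln was -0.0927, Myl7 -0.0593, Myl4 -0.00173 and Nppa -0.00896. Without RW-MS 7 as well they were -0.144, -0.0964, -0.0519 and -0.0220, and without RW-SS 7 too -0.146, -0.0836, -0.0696 and -0.0888, both alternatives chosen after seeing the data. With the mean of all probe sets Hsp90b1 was -0.110 and Pdha1 -0.0492. Without the 2 RW-SS arrays high in red cell markers Tfrc was 0.00166.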
